A study of Rattus norvegicus with 6 samples.

Results

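The genes of the constitutive proteasome and its immediate helpers were followed in primary neonatal rat ventricular cardiomyocytes treated with human cardiotrophin 1 (hCT1), a cytokine of the interleukin 6 family. A gene was taken if exactly 1 symbol was paired with its probe set, the symbol began with Psma, Psmb, Psmc, Psmd, Psme, Psmf or Psmg followed by a number, and it was not Psmb8, Psmb9 or Psmb10, the subunits of the immunoproteasome. This rule took 44 of the 14506 genes on the arrays, and where a gene had several probe sets the brightest over all 6 samples stood for it. The genes were taken by name, and measured brightness, not the difference between the groups, picked the probe set of a gene. Of the 44 genes, 42 encode subunits, activators or assembly chaperones of the proteasome, and the other 2 (Psmc3ip and Psme3ip1) encode proteins named for binding a subunit or an activator.

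Both groups were cardiomyocytes from the ventricles of Sprague-Dawley rats that were 2 days old. One group of 3 arrays came from cells kept for 24 h in control serum-free medium, and 3 from cells kept for 24 h in the same medium with 0.5 nM hCT1, a dose given in the study's methods. A growth label shared by all 6 samples names a hypertrophic agonist, whereas the methods describe the control medium as free of one. Cells from several hearts were pooled and depleted of fibroblasts by plating, so the cultures were enriched for cardiomyocytes and not pure. The triplicates are not stated to be separate cultures, so the p-values rest on a spread among 3 arrays a group that may be technical in origin.

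The proteasome is the main protease complex of the cytosol and nucleus and degrades proteins tagged with ubiquitin. Its barrel-shaped core particle is built from outer alpha rings, which gate the entry, and inner beta rings, which hold the cutting sites in Psmb5, Psmb6 and Psmb7. A regulatory particle caps the barrel: the ATPases of its base unfold the substrate, and its lid and ubiquitin receptors recognise the tag and remove it. In heart muscle the proteasome takes part in the turnover of sarcomere and other proteins, and its activity is studied in cardiac growth and atrophy.

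The changes with hCT1 were small, and 6 of the 8 decreases lay in the core particle. Of the 44 genes, 8 fell (Psma2, Psma4, Psma5, Psma7, Psmb3, Psmb4, Psmc3 and Psmg4) and 2 rose (Psmd6 and Psme4). The other 34 did not pass. The threshold was an adjusted p under 0.05 in limma, a linear model fitted to the 15310 probe sets paired with a single gene symbol. Across all genes tested, 9.58% were lower and 5.09% higher, against 18.2% and 4.55% of the proteasome genes. Log2 fold changes (hCT1 minus control) ran from -0.33 to 0.24, with a median of -0.035, and the median over all genes lay within 0.001 of 0. The median size of change was 0.25 among the proteasome genes that passed and 0.31 among all genes that passed. The brighter genes of the arrays are a nearer background, since 43 of the 44 proteasome genes passed a filter on dim probe sets. Among the 2792 genes at least as bright as the lower quartile of the proteasome genes, 10.2% were lower and 8.49% higher. In a fit without the dim probe sets, 8 of 43 proteasome genes were lower and 3 higher. Of all genes in that fit, 17.6% were lower and 8.37% higher.

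These counts moved when single libraries were left out. When control replicate 1, 2 or 3 was left out, the numbers higher and lower were 0 and 1, 0 and 3, and 2 and 5. When hCT1 replicate 1, 2 or 3 was left out, they were 0 and 2, 0 and 1, and 0 and 4. Calls over all genes moved too: without control replicate 1, 2 or 3 the lower share was 5.13%, 5.23% and 11.7% and the higher share 3.11%, 2.79% and 5.83%. Without hCT1 replicate 1, 2 or 3 the lower share was 5.74%, 5.23% and 6.36% and the higher share 2.85%, 3.34% and 3.40%. At an unadjusted p under 0.05 in limma with all samples, 4 proteasome genes were higher and 12 lower, beside 12% and 17.9% of all genes. The numbers higher and lower were 3 and 4 after a repeated quantile normalization. They were 4 and 2 after each array was centred on its median over the 15310 probe sets tested. Over all genes the lower and higher shares became 6.96% and 6.16% under the first of these scalings and 4.92% and 15.4% under the second. Psma7 passed without any 1 of the 6 libraries, Psma5 without 4 of them, Psmb3 and Psmb4 without 2, Psma2, Psmd6, Psme4 and Psmg4 without 1, while Psma4 and Psmc3 failed whichever library was left out.

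**Figure D1:**
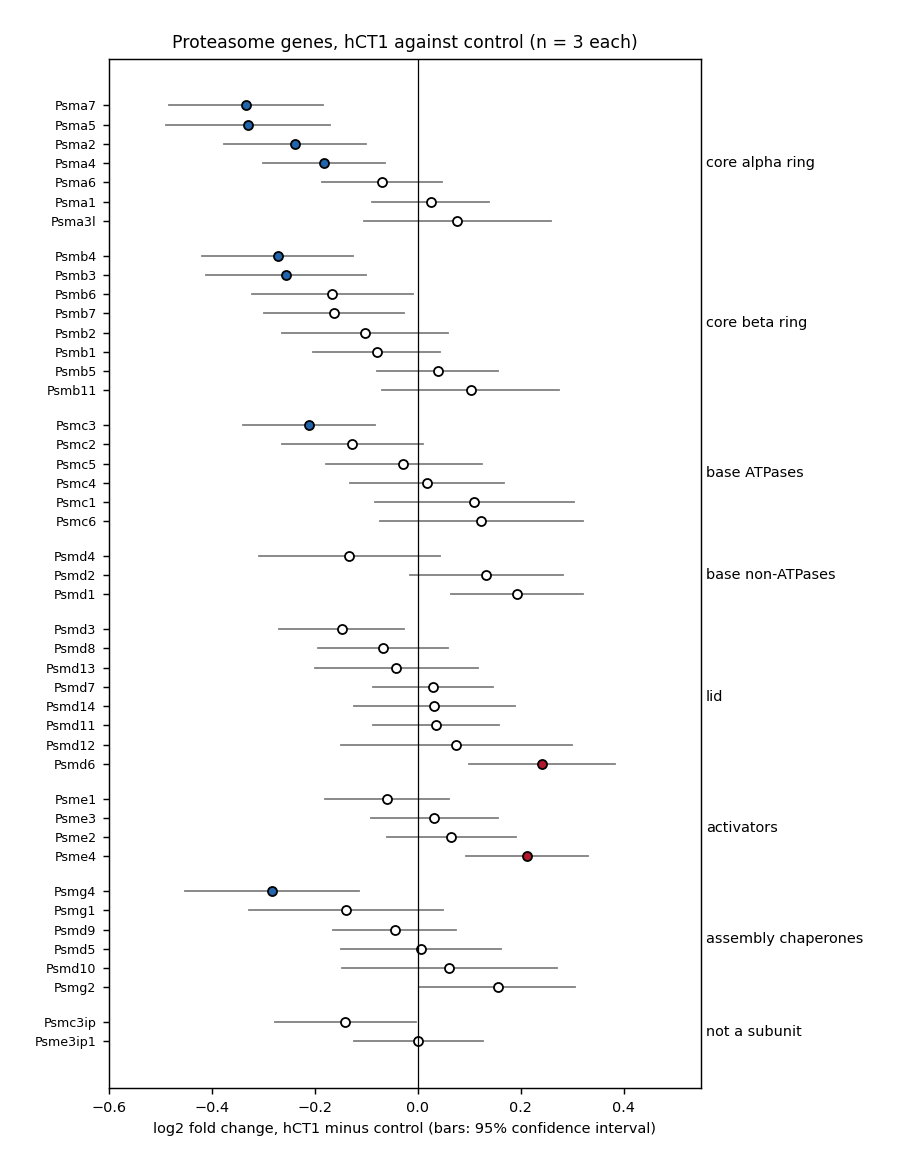
Points give the log2 fold change of each proteasome gene, hCT1 minus control (n = 3 arrays each), with its 95% confidence interval from limma, and genes are ordered within their role. Filled blue points fell and filled red points rose at an adjusted p under 0.05, and open points did not pass: 6 of the 8 blue points lie in the alpha and beta rings of the core particle.

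The sequences upstream of a pair of genes that fell and of a gene that rose are shown because these genes encode parts of a single complex and did not change in a single direction. RefSeq windows (assembly GRCr8) of 300 bases, 250 before and 50 after the start of transcription, were matched for 38 of the 44 genes, among them 8 of the 10 that passed. In the windows of Psma5 (chr2:198584255-198584554, plus strand), Psmb4 (chr2:185134512-185134811, minus strand) and Psme4 (chr14:108706393-108706692, plus strand), capitals mark 3 searched motifs on either strand: the CCAAT box, the ETS-type core TTCCGG and the antioxidant response element core TGACNNNGC.
Psma5: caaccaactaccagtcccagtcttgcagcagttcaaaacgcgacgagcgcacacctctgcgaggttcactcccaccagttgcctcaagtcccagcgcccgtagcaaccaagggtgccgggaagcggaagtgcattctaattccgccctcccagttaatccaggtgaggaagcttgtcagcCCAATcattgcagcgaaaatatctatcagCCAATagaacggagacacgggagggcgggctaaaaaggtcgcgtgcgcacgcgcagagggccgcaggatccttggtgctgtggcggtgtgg
Psmb4: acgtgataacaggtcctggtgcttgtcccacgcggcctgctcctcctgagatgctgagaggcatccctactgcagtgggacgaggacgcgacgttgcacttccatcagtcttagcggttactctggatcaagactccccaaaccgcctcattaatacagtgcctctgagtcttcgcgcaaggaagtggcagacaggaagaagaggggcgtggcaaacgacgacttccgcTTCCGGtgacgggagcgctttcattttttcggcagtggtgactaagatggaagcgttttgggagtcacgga
Psme4: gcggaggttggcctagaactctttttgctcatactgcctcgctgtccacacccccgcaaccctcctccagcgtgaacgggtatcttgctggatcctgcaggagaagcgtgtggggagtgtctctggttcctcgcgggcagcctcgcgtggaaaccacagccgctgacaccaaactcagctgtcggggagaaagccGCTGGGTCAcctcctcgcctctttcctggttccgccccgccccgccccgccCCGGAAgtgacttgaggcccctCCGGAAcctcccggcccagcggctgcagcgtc
With the base just before the start counted as -1, the Psma5 window held CCAAT from -70 and from -41. Psmb4 held TTCCGG from -21. Psme4 held the reverse complement of TTCCGG from -4 and from 19, and that of TGACNNNGC from -55.

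Across the 38 windows, TTCCGG was found in 21 (55.3%), beside 20.9% of the 12509 windows of genes tested and 15.0% of all 33469 windows. The overlapping ETS-type flank ACTTCC was found in 20 (52.6%, against 24.6% and 22.6%). CCAAT was found in 18 (47.4%, against 38.2% and 37.5%). TGACNNNGC, the core bound by Nfe2l1 and Nfe2l2, was found in 7 (18.4%, against 13.8% and 12.1%). The STAT-type palindrome TTCNNNGAA was found in 3 (7.90%, against 7.65% and 8.87%), and its form TTCCNGGAA in 0, against 1.29% and 1.27%. Of the remaining motifs, the TATA box TATAAA was found in 4 windows (10.5%, against 11.6% and 14.2%), GCCATNTTG in 3 (7.90%, against 3.78% and 2.80%) and TGACGTCA in 1 (2.63%, against 2.45% and 1.83%). In the 7 windows of genes that fell, CCAAT was found in 5, ACTTCC in 4 and TTCCGG in 3, and the other 6 motifs in 0. Both strands were searched, and a match says only that these letters lie in the window.

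In the core particle, 6 of 15 genes fell (beside 9.58% of all genes) and 0 rose, 11 had a negative log2 fold change, and the median was -0.16. At an unadjusted p under 0.05 in limma, 8 were lower and 0 higher, where the shares over all genes were 17.9% and 12%. Relative to the control mean, the median core gene stood at 0.01, -0.02 and 0.01 on the log2 scale in the control samples and at -0.15, -0.21 and -0.09 in the hCT1 samples, while the median over all genes stayed between -0.02 and 0.01 in every sample. All hCT1 samples thus lay below all control samples for the core median. The summed linear RMA level of the 15 genes was 15303 to 15735 in control and 14011 to 14674 with hCT1. The core median was negative in every alternative, between -0.07 and -0.19. This median could not change, and stayed at -0.16, where only the variance model, test, threshold or block differed or all probe sets were tested. It was least negative at -0.07 after centring, where the median over all genes was 0.09. When control replicate 1, 2 or 3 was left out, 1, 3 and 4 core genes fell. When hCT1 replicate 1, 2 or 3 was left out, 2, 1 and 4 fell. In a bulk RNA sample, fewer cells of a type and less RNA per cell cannot be told apart.

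The alpha ring held the 2 largest decreases, those of Psma7 and Psma5. Of its 7 genes, 4 fell (beside 9.58% of all genes): Psma7, Psma5, Psma2 and Psma4. Psma7 had log2 values of 8.77, 8.72 and 8.79 in control and 8.55, 8.39 and 8.35 with hCT1, so the groups did not overlap, and it fell by 0.33 (SE 0.07, adjusted p = 0.0111), which is 20.7% lower. Psma5 measured 8.94, 8.84 and 8.81 in control and 8.53, 8.42 and 8.64 with hCT1. Its groups were also apart, and it fell by 0.33 (SE 0.07, adjusted p = 0.0151). Psma2 measured 8.86, 8.94 and 8.94 in control and 8.67, 8.60 and 8.76 with hCT1, a change of -0.24 (SE 0.06, adjusted p = 0.0306). Psma4 had the narrowest spread of these 4 genes, at 9.40, 9.36 and 9.41 in control and 9.20, 9.18 and 9.23 with hCT1, and fell by 0.18 (SE 0.05, adjusted p = 0.0484). Every hCT1 value of these genes lay below every control value. The 3 alpha ring genes that did not pass ran from -0.07 for Psma6 through Psma1 at 0.03 to 0.08 for Psma3l, a symbol that RefSeq lists as a synonym of Psma3. Psma8, the alpha subunit typical of the testis, and Psma3 under its own symbol had no probe set with a single symbol and were not analysed here.

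In the beta ring, 2 of 8 genes fell, beside 9.58% of all genes. Both encode subunits with no cutting site, and these were not tested against the catalytic ones. Psmb4 measured 9.66, 9.54 and 9.75 in control and 9.37, 9.37 and 9.39 with hCT1. It fell by 0.27 (SE 0.07, adjusted p = 0.0236), and the hCT1 values lay closer together than the control values. Psmb3 measured 10.80, 10.70 and 10.61 in control and 10.44, 10.38 and 10.53 with hCT1, and fell by 0.26 (SE 0.07, adjusted p = 0.0369) with the groups apart.

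None of the 3 catalytic subunits passed by its brightest probe set. For Psmb5, which carries the chymotrypsin-like site, the values were 10.63, 10.63 and 10.60 in control and 10.69, 10.63 and 10.65 with hCT1, a difference of 0.04 (95% confidence interval -0.08 to 0.16, adjusted p = 0.663) with overlapping groups. Psmb6, the caspase-like subunit, measured 10.57, 10.63 and 10.46 in control and 10.35, 10.32 and 10.49 with hCT1. The highest hCT1 value lay above the lowest control value, and the difference was -0.17 (-0.32 to -0.01, adjusted p = 0.143). A dimmer probe set of Psmb6 gave -0.22 and passed (adjusted p = 0.0472), so the call for this gene depended on the probe set. Psmb7, the trypsin-like subunit, measured 10.71, 10.58 and 10.60 in control and 10.48, 10.41 and 10.52 with hCT1. These groups did not overlap, but the difference of -0.16 (-0.30 to -0.03) did not pass the test (adjusted p = 0.107). The differences between the catalytic subunits were not tested. Of the other beta genes, Psmb2, the brightest proteasome gene, had a log2 fold change of -0.10, Psmb1 had -0.08, and Psmb11, a beta subunit typical of the thymus, had 0.10 at a dim signal brighter than 34.9% of genes in control.

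**Figure D2:**
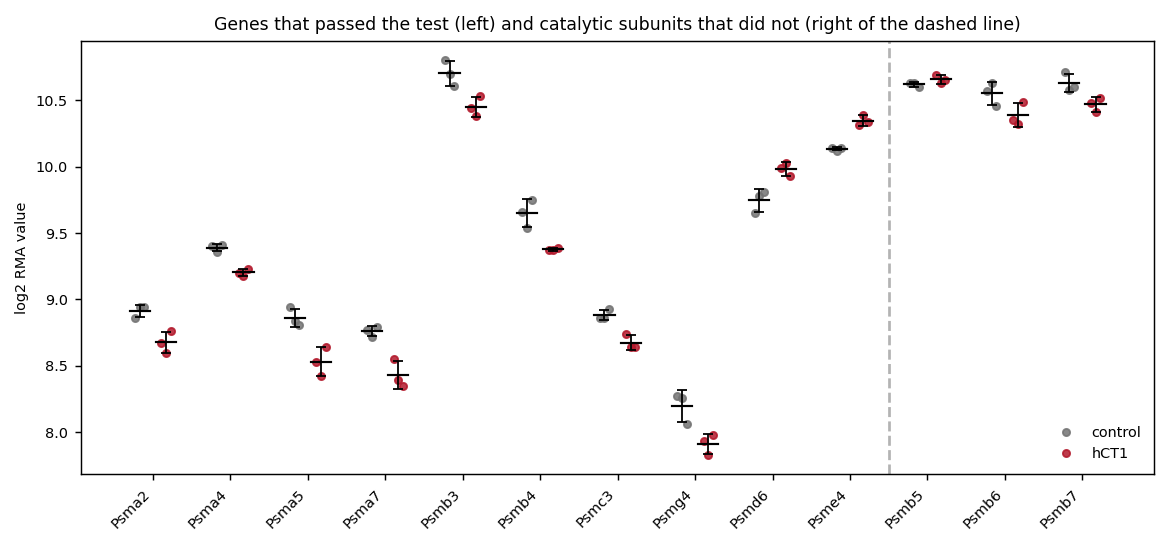
Points are the log2 RMA values of the single arrays (grey, control, red, hCT1, n = 3 each), with the group mean as a line and the SD as an error bar, for the 10 proteasome genes that passed and, right of the dashed line, the 3 catalytic subunits. The control and hCT1 points do not overlap in the 10 genes on the left, which passed a test of this difference. They also lie apart in Psmb7, and they overlap in Psmb5 and Psmb6. The decrease of Psma7 reaches 0.33.

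The regulatory particle was mixed: 1 of its 17 genes rose and 1 fell, beside 5.09% and 9.58% of all genes. Of the 17, 10 had a positive and 7 a negative log2 fold change, and the median was 0.03. Relative to the control mean, its median gene stood at -0.04, -0.03 and 0.07 in the control samples and at 0.03, 0.08 and -0.04 with hCT1, so the groups overlapped. Among the ATPases of the base, Psmc3 fell by 0.21 (SE 0.06, adjusted p = 0.0365), from 8.86, 8.86 and 8.93 in control to 8.74, 8.64 and 8.64 with hCT1. The other 5 ATPase genes ran from -0.13 for Psmc2 to 0.12 for Psmc6 and did not pass. In the rest of the base, Psmd1, a large scaffold subunit, measured 10.17, 10.20 and 10.24 in control and 10.33, 10.45 and 10.40 with hCT1. All its hCT1 values were above all control values, and its difference of 0.19 (0.07 to 0.32) lay just outside the threshold (adjusted p = 0.0504). Psmd2, the other scaffold, had 0.13, and the ubiquitin receptor Psmd4 had -0.13.

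In the lid, 1 of 8 genes rose, beside 5.09% of all genes. Sem1, a lid subunit outside the naming rule, is not in the counts of the lid and regulatory particle, and it fell by 0.41. Psmd6 measured 9.65, 9.78 and 9.81 in control and 9.99, 10.03 and 9.93 with hCT1, an increase of 0.24 (SE 0.06, adjusted p = 0.0328) or 18.2%. Its groups were apart. The other 7 ran from -0.15 for Psmd3 to 0.08 for Psmd12, with the deubiquitinase Psmd14 at 0.03. Psmd3 had groups that did not overlap and an adjusted p of 0.0984.

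**Figure D3:**
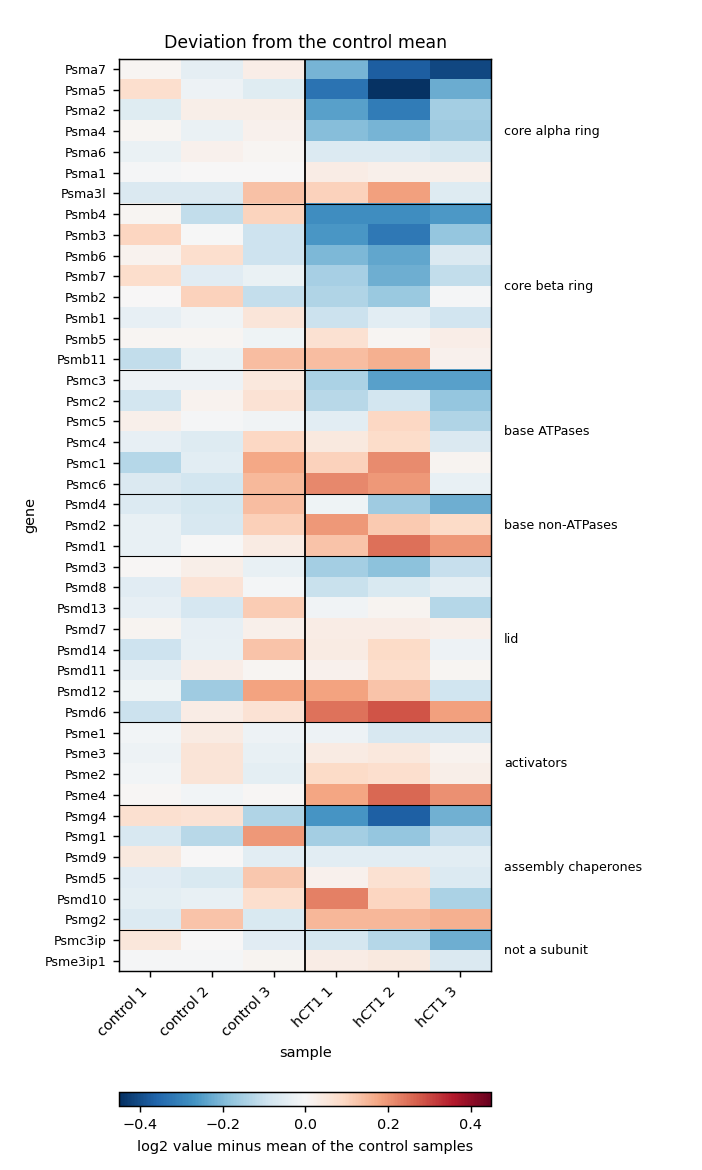
Each row is a proteasome gene and each column a sample, coloured by the log2 value minus the mean of the 3 control samples, with blue lower and red higher, and horizontal lines part the roles. The alpha and beta ring rows are mostly blue in the 3 hCT1 columns (core median -0.15, -0.21 and -0.09), while the base and lid rows are mixed and often red in control replicate 3.

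The samples within a group also differed among themselves. In 13 of the 17 regulatory particle genes (76.5%) control replicate 3 was the highest control sample, and in 14 (82.4%) hCT1 replicate 3 was the lowest hCT1 sample. Over all genes these shares were 32.6% and 33.8%. Both held in 12 regulatory genes (70.6%), in 3 of the 15 core genes (20.0%) and in 15.9% of all genes. This pattern was seen in the values first and is given as a description, and the source of the difference between libraries was not tested.

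Of the activators, which open the barrel without the regulatory particle, 1 of 4 rose, beside 5.09% of all genes. Psme4, a large nuclear activator linked to acetylated histones, measured 10.14, 10.12 and 10.14 in control and 10.31, 10.39 and 10.34 with hCT1. The increase was 0.21 (SE 0.05, adjusted p = 0.0279) or 15.8%, and the lowest hCT1 value lay clearly above the highest control value. Psme1 and Psme2 form a joint ring that interferon induces. Psme1 measured 9.88, 9.93 and 9.87 in control and 9.87, 9.82 and 9.82 with hCT1 (-0.06, 95% confidence interval -0.18 to 0.06, adjusted p = 0.499). Psme2 measured 10.80, 10.87 and 10.77 in control and 10.90, 10.89 and 10.84 with hCT1 (0.07, -0.06 to 0.19, adjusted p = 0.473). Their groups overlapped, and so did those of the nuclear activator Psme3, at 10.07, 10.15 and 10.06 in control and 10.13, 10.14 and 10.11 with hCT1 (0.03, -0.09 to 0.16, adjusted p = 0.734). The inhibitor Psmf1 had no probe set with a single symbol and was not analysed here.

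Among the 6 assembly chaperones, 1 fell, beside 9.58% of all genes. Psmg4, a chaperone of alpha ring assembly, measured 8.27, 8.26 and 8.06 in control and 7.93, 7.83 and 7.98 with hCT1, and fell by 0.28 (SE 0.08, adjusted p = 0.0342) with the groups apart. Psmg2, which acts with Psmg1 at an early step of the same ring, measured 7.95, 8.14 and 7.94 in control and 8.16, 8.16 and 8.17 with hCT1. Every hCT1 value was above every control value, yet its difference of 0.16 did not pass (95% confidence interval 0.004 to 0.31, adjusted p = 0.156). Psmg1 had -0.14, and the chaperones of the base were between -0.05 for Psmd9 and 0.06 for Psmd10. Neither of the genes that are no subunit passed: Psmc3ip, a factor of meiotic recombination, had -0.14, and Psme3ip1 had 0.00.

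Across the 44 genes, 6 had all hCT1 samples above all control samples and 13 had them all below, which is 13.6% and 29.5%. Over all genes the shares were 14.2% and 20.0%. Of the 13, 9 were core particle genes: besides the 6 that passed, these were Psma6, Psmb1 and Psmb7. Of the 6 above, 4 did not pass: Psmd1, Psmg2, Psma1 and Psmd7, the last with a difference of 0.03.

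A list of 35 genes that act with the proteasome was measured for 27 of them, of which 3 rose (11.1%, beside 5.09% of all genes), 4 fell (14.8%, beside 9.58%) and 20 did not pass. The largest changes were among the further subunits, assembly factors and bound factors. Sem1, a small lid subunit outside the naming rule, measured 8.39, 8.35 and 8.57 in control and 7.94, 8.11 and 8.04 with hCT1, and fell by 0.41 (SE 0.07, adjusted p = 0.00765). Pomp, the chaperone that completes the core particle, measured 9.73, 9.71 and 9.74 in control and 9.40, 9.36 and 9.38 with hCT1. It fell by 0.35 (SE 0.05, adjusted p = 0.00265), and its samples lay close together within each group. Usp14, the deubiquitinase that binds the base, rose by 0.37 (SE 0.07, adjusted p = 0.0117), from 9.48, 9.64 and 9.72 to 9.90, 10.06 and 9.99. Akirin2, which carries proteasomes into the nucleus, rose by 0.20 (adjusted p = 0.0395), from 8.96, 8.96 and 8.97 to 9.10, 9.22 and 9.17.

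Of the ubiquitin-activating enzymes, Uba6 rose by 0.27 (adjusted p = 0.0189), from 8.88, 8.84 and 8.94 to 9.07, 9.21 and 9.19. The shuttle Ubqln2 measured 9.26, 9.20 and 9.03 in control and 8.85, 8.87 and 8.98 with hCT1, and fell by 0.26 (adjusted p = 0.0433). These groups did not overlap either. The transcription factors that drive proteasome genes did not pass: Nfe2l1 measured 9.58, 9.73 and 9.70 in control and 9.69, 9.67 and 9.62 with hCT1 (-0.01, 95% confidence interval -0.14 to 0.13, adjusted p = 0.962). Nfe2l2 measured 10.31, 10.43 and 10.51 in control and 10.47, 10.43 and 10.40 with hCT1 (0.02, -0.13 to 0.16, adjusted p = 0.878). Of the immunoproteasome subunits, Psmb10 fell by 0.29 (adjusted p = 0.0146), from 7.15, 7.03 and 7.03 to 6.78, 6.71 and 6.83, while Psmb9 had -0.11 (adjusted p = 0.188) and the dim Psmb8 had -0.05 (adjusted p = 0.613). When control replicate 1, 2 or 3 was left out, 3, 4 and 7 of these 27 genes passed. When hCT1 replicate 1, 2 or 3 was left out, 5, 3 and 4 passed. Over all genes in these fits, the lower share ran from 5.13% to 11.7% and the higher share from 2.79% to 5.83%.

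**Figure D4:**
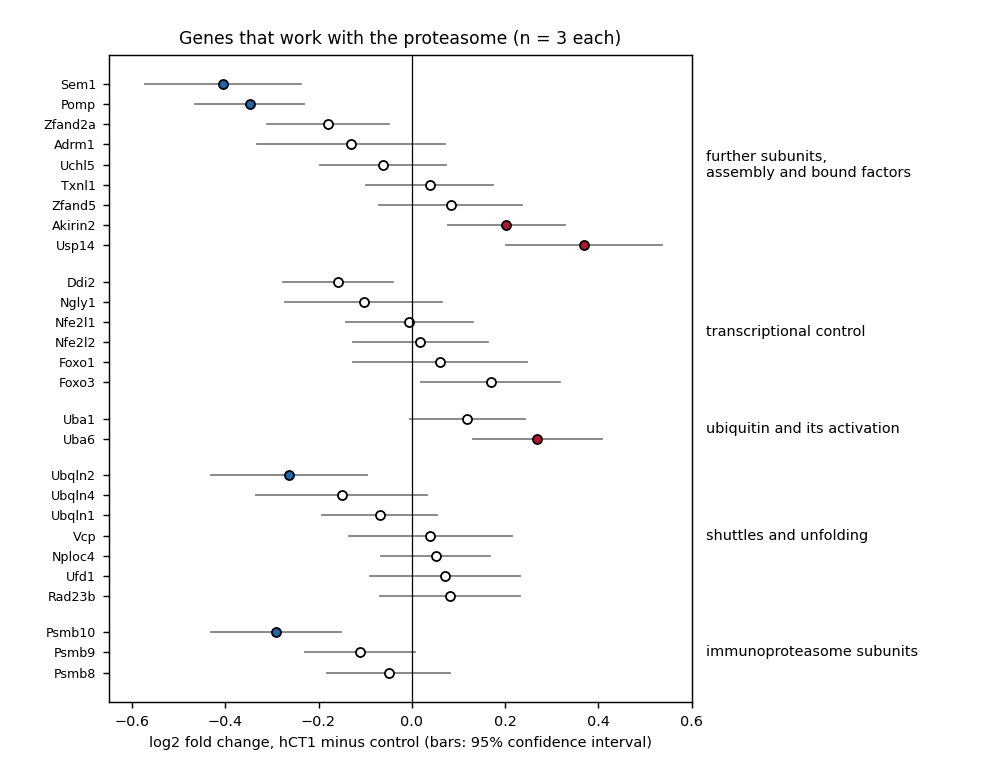
Points give the log2 fold change of each gene that works with the proteasome, hCT1 minus control (n = 3 arrays each), with its 95% confidence interval from limma. Filled points passed at an adjusted p under 0.05 (blue lower, red higher): Sem1 at -0.41 and Usp14 at 0.37 mark the ends, and Nfe2l1 and Nfe2l2 lie at -0.01 and 0.02.

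Several proteasome genes have named copies elsewhere in the genome, and whether the probes tell them apart was not tested. RefSeq (GRCr8) matched 43 of the 44 genes and names pseudogene or like copies for 18 of them. These include 6 of the 8 genes that fell (Psma2, Psma5, Psma7, Psmb3, Psmb4 and Psmg4) and 0 of the 2 that rose. Psmb3 had the most, with 10 named copies, and its value and those of the other 5 are uncertain to the extent that probes are shared. The genes that fell without a named copy were Psma4 and Psmc3. The span of the gene in RefSeq was 2.78 to 23.4 kb (median 7.25 kb) for the 8 that fell, and 10.01 kb for Psmd6 and 103.7 kb for Psme4, the genes that rose. Across the 43 genes with a span, the log2 fold change had a Spearman rho of 0.27 with span and, across all 44, of 0.18 with mean signal. Over all genes these were -0.03 (14474 genes) and -0.18, and genes are not independent replicates. Psme1 and Psme2, which lie with 1 gene between them, had log2 fold changes of -0.06 and 0.07.

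Markers were read beside these results, where 9.58% of all genes fell and 5.09% rose. Cardiomyocyte markers were bright, at a median above 99.1% of genes, and 2 of 8 fell (Tnni3 by 0.62 and Myh6 by 0.45). Of the 6 that did not pass, Ryr2 (-0.13), Actn2 (-0.11), Pln (-0.07) and Nppa (-0.06) had negative values, and Tnnt2 (0.03) and Myh7 (0.01) positive ones. At an unadjusted p under 0.05, 3 of the 8 were lower, beside 17.9% of all genes. Their summed linear level was 19850 to 20131 in control and 18574 to 19607 with hCT1. The 8 fibroblast markers summed to 9257 to 9723 in control and 8867 to 9050 with hCT1, and 0 passed in limma. At an unadjusted p under 0.05 in limma, the fibroblast marker Dcn was higher (0.18) and Col1a2 lower (-0.14). Of the smooth muscle markers 2 of 4 fell, with summed levels of 9160 to 9483 and 8715 to 8941. Of the endothelial markers 1 of 4 fell (624 to 735 against 617 to 639). Of the leukocyte markers 0 of 6 passed (239 to 269 against 219 to 249), with 1 lower at an unadjusted p under 0.05. The leukocyte markers were dim, at a median brighter than 42.9% of genes. The part of cell composition in the proteasome results was not tested.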

How the data were processed

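Affymetrix whole-transcript arrays measured total RNA of 3 control and 3 hCT1 samples. The authors deposited log2 values from RMA (background subtraction, quantile normalization and summary of the probes of a probe set). Affymetrix Expression Console is listed beside RMA in the submitters' processing notes, both without a version. No genome build for the values is given in the sources used here. The values were used as deposited, and array medians over all 29215 probe sets lay between 5.50 and 5.58. RMA compresses folds of dim probe sets. There are no detection calls, and the number of arrays limits the precision.

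Of 29215 probe sets, the 15310 paired with 1 gene symbol in the platform annotation were tested in limma 3.58.1 (R 4.3.3, lmFit and eBayes, 2-sided) over all 6 samples with no covariate, with Benjamini-Hochberg adjustment over the 15310 and a threshold of 0.05. Standard errors and 95% confidence intervals are those of the moderated fit. An exact permutation test of 3 against 3 cannot go below 0.10 and was not used. The script was checked on simulated data.

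The proteasome genes, partner and marker lists were chosen with earlier results of these data known. Every proteasome gene is accounted for within its role. Values in every sample are given for genes that passed, the catalytic subunits, the activators and the 4 largest changes that did not pass. Of the partner genes, those that passed, Nfe2l1, Nfe2l2 and the immunoproteasome subunits are named. Psma3l was placed in the alpha ring after its RefSeq synonym was seen. Counts for the core particle alone were added after the counts by role were seen. Alternatives were the variance model, array weights, the methods' one-way test, a filter at the 40th percentile of signal, all probe sets, repeated quantile normalization, centring, averaged probe sets, other thresholds, the replicate number as a block, and each sample left out in turn.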

Additional observations from a re-analysis of the deposited data

How the results depend on the processing

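With all samples, 2 proteasome genes were higher and 8 lower (6 of them in the core particle), 7 partner genes passed, and the median log2 fold change of the proteasome genes was -0.035. The methods' one-way test at an unadjusted p under 0.05 gave 4 higher, 11 lower (8 in the core) and 12 partner genes. Of all genes, 9.934% were higher and 15.68% lower in that test. After Benjamini-Hochberg adjustment the one-way test gave 1 higher, 1 lower (a core gene) and 2 partner genes. The shares over all genes were then 2.516% higher and 4.198% lower. With all 29215 probe sets tested, 0 were higher and 2 lower, both in the core, beside 2.92% and 5.76% of all genes. Repeated quantile normalization left 4 lower, with a median of 0.009. Centring gave 4 higher and 2 lower (both in the core), with a median of 0.06 against 0.094 over all genes. An adjusted p under 0.01 left 0 higher, 0 lower, 0 in the core and 2 partner genes, beside 1.985% higher and 3.56% lower over all genes. Beside these counts of 0, limma gave 4 higher and 12 lower proteasome genes at an unadjusted p under 0.05. The fit with the replicate number as a block gave 0 higher and 3 lower, all 3 in the core (Psma5, Psma7 and Psmb4). Under that fit 3.29% of all genes were higher and 6.50% lower. Same-numbered samples had correlations of -0.0253, 0.0459 and -0.285 in their deviations from the group means, so the numbers were not taken to pair the samples. Leaving out each sample in turn gave 0 to 2 higher, 1 to 5 lower, 1 to 4 lower in the core, 3 to 7 partner genes and a median between -0.048 and 0.013. Over the named genes and these alternatives, 383 results kept their direction and their side of the threshold, 120 no longer passed and 11 newly passed. The other 7 changed sign, all of genes that did not pass: after centring Psme1 had 0.036, Nfe2l1 0.09 and Psmb8 0.046, Nfe2l2 had -0.034 without control replicate 1, and Nfe2l1 had 0.025, 0.009 and 0.014 without control replicate 2, control replicate 3 and hCT1 replicate 3. Leaving out single samples, Nfe2l1 ranged from -0.05 to 0.025 and Nfe2l2 from -0.034 to 0.064. Only genes that passed with all samples could add to the 120, while the 383 also hold results of genes that did not. The direction could not change where only the variance model, test, threshold or block differed or all probe sets were tested. Among the proteasome genes that passed, Psma4 and Psmc3 each lost the call in 12 of the 18 alternatives, and Psma7 in 2. The 3 arrays a group limit the precision of every count, and the causes of the changed counts were not tested.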
